A study of Mus musculus with 8 samples.

Results

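The genes described here encode splicing factors, hnRNPs and snRNP proteins, and they were compared in mouse CD8+ T cells activated by B cells or by dendritic cells. They were chosen by a rule on names, with earlier results of these data known. The rule takes every row of the array table whose gene name starts with SFRS, SRSF, HNRP, HNRNP, SNRP, SF3A, SF3B or U2AF. This gave 57 of 18138 rows, which stand for 53 distinct genes, because 4 hnRNP genes have 2 rows each under an old and a current name. The T cells were OT-1 cells, which carry a transgenic receptor for the ovalbumin peptide SIINFEKL on H2-Kb. All arrays share that receptor, the peptide, stimulators treated with LPS, a coculture of 24 h and sorting on CD8 and on CD69, a marker of early activation. In 4 arrays the stimulators were CD40-activated B cells (cB) and in 4 they were dendritic cells (DC). The labels give no strain, age, sex or pooling of the animals, and they do not state whether replicates were separate cultures or mice, so p-values reflect only the spread among these arrays, possibly technical.

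Introns are removed from pre-mRNA by the spliceosome, which is built from small nuclear ribonucleoproteins (snRNPs). Each of the U1, U2, U4 and U5 snRNPs holds a small RNA inside a ring of Sm proteins, together with proteins of its own. U1 marks the start of an intron, U2AF and then U2 with its SF3A and SF3B complexes mark the branch site and the intron's end, and SR proteins and hnRNPs bind the transcript and shift which sites are used. Activated T cells are known to change the splicing of many transcripts, that of the CD45 gene Ptprc being the classical case.

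The arrays had mean intensities of 602 to 824 and detected 38.3% to 40.8% of all rows, meaning a detection p-value below 0.05. The test, with limma, took the 7167 rows that 4 or more arrays detected, and a row was called at a Benjamini-Hochberg adjusted p below 0.05 over all of them. Markers of T cells were present on every array except Cd8a, which was undetected on all 8, and the summed intensity of the 9 T cell marker rows was 47767 to 84558 on cB arrays and 54388 to 77016 on DC arrays. Of 8 tested T cell marker rows, Thy1 (0.90 ± 0.14 on the log2 scale) and Cd2 (0.60 ± 0.13) were higher in cB, and 3 were higher in DC, namely Cd3d (-0.54 ± 0.14), Cd3e (-0.32 ± 0.12) and Cd69. Cd69, the marker of activation used in the sort, lay between 11.52 and 12.03 on cB arrays and between 13.76 and 14.01 on DC arrays, a 4.45-fold higher level in DC (-2.15 ± 0.13, adjusted p = 4.7e-07). The summed intensity of 11 B cell marker rows was 4168 to 4890 on cB and 2629 to 2896 on DC arrays, with 4 of 6 tested rows higher in cB and 1 in DC, while Pax5 and Cd22 were undetected throughout. For 15 rows of dendritic and myeloid markers the sums were 5730 to 7323 on cB and 7913 to 8538 on DC arrays, with 6 of 7 tested rows higher in DC and 1 in cB, while Itgax, Itgam and Csf1r were undetected throughout. All these sums are of raw intensities with background included, so undetected rows add to them. Cst3 (mean intensity 3304) and Cd83 (1520), detected on all 8 arrays, were the brightest dendritic and myeloid rows. The marker levels move with the groups, and their part in the results that follow was not tested.

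Most of the splicing genes that could be measured were higher in cB-stimulated T cells, by modest amounts. Of 42 rows tested, 24 were called higher in cB and 1 higher in DC, against a background of 29.8% of all tested genes for cB and 31.6% for DC. The genes of snRNP proteins led with differences up to 2.96-fold, and the SR proteins followed. Most hnRNP rows were not called, with 5 of 15 tested called toward cB and 1 toward DC. Among the 38 rows detected on all 8 arrays, which did not depend on 1 group to be tested, 23 were higher in cB and 1 in DC, beside 31% higher in cB among all genes detected on all 8. The median log2 difference, cB minus DC, was 0.46 over the 42 rows and -0.03 over all genes tested. The estimate was positive in 37 rows and negative in 5. In 24 rows every cB array lay above every DC array, beside 27.7% of all genes. At least 2-fold differences were few, with 4 called rows, all of them higher in cB, beside 24.5% of all genes in either direction.

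**Figure D1:**
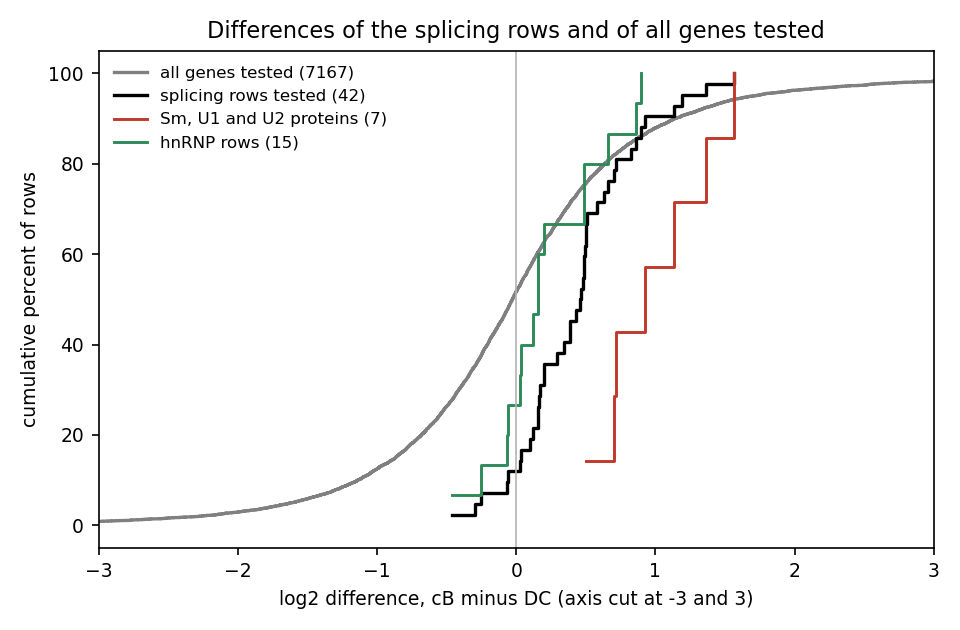
The cumulative percent of rows (vertical axis) is plotted against the log2 difference, cB minus DC, for all 7167 genes tested (grey), the 42 splicing rows (black), the 7 Sm, U1 and U2 protein rows (red) and the 15 hnRNP rows (green). The splicing rows lie between -0.46 and 1.57, with their median at 0.46 against -0.03 for all genes.

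The shift was seen on every array. With each row centred on its mean over the 8 arrays, the median of the 42 rows was 0.20, 0.28, 0.17 and 0.28 on the log2 scale on cB arrays 1 to 4, and -0.22, -0.16, -0.32 and -0.22 on DC arrays 1 to 4. All cB medians were thus above all DC medians. Over all genes tested the same median lay between -0.01 and 0.02 on each array, which quantile normalization largely sets in advance. Between 31 and 35 of the 42 rows were above their own mean on a cB array, and between 6 and 12 on a DC array.

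The U1 snRNP genes had the largest differences. Snrnp70, listed as SNRP70, encodes U1-70K, which binds the U1 RNA and is a contact point for SR proteins at the start of the intron. Its log2 values were 9.9986, 10.3128, 9.9548 and 9.6155 on the cB arrays and 8.1794, 8.4557, 8.042 and 8.9347 on the DC arrays. No DC array reached the lowest cB array, although DC replicate 4 was nearer to it than the others were. The difference was 1.57 ± 0.21 (SE, n = 4 arrays per group), or 2.96-fold, with an adjusted p of 1.2e-04. Snrpa, which encodes another protein that binds the U1 RNA, was at 11.2201, 11.3656, 11.4448 and 11.3865 in cB and at 9.8473, 10.0259, 10.1005 and 9.976 in DC. Its groups were far apart relative to their spread, with a difference of 1.37 ± 0.10, 2.58-fold, and an adjusted p of 1.6e-06. Snrpb2, whose product is specific to U2, was detected on 1 cB array and no DC array and was not tested.

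All 5 tested genes of the Sm ring were higher in cB, where 29.8% of all genes were, with differences from 0.50 to 1.13. The Sm proteins form the ring around the small RNA that the snRNPs share, and it is needed for their stability and return to the nucleus. Snrpd1 had log2 values of 13.17, 13.32, 13.32 and 13.30 on cB arrays and 12.14, 12.23, 12.07 and 12.13 on DC arrays. The groups were separated by much more than their spread, with a difference of 1.13 ± 0.09, 2.20-fold (adjusted p = 3.0e-06). Snrpd2 was at 14.18, 14.21, 14.35 and 14.18 in cB and at 13.17, 13.36, 13.30 and 13.39 in DC, a difference of 0.93 ± 0.09 (adjusted p = 1.8e-05). Snrpd3 was at 12.85, 12.71, 12.97 and 12.77 in cB and at 11.82, 12.26, 12.14 and 12.21 in DC. DC replicate 1 was the lowest of these, and the difference was 0.72 ± 0.12 (adjusted p = 5.3e-04). Snrpb (0.71 ± 0.10) and Snrpg (0.50 ± 0.11) also rose, without overlap between groups. Over all genes tested, 27.7% had every cB array above every DC array. Snrpe was undetected on all 8 arrays, with raw intensities between 132 and 169, and was not tested.

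**Figure D2:**
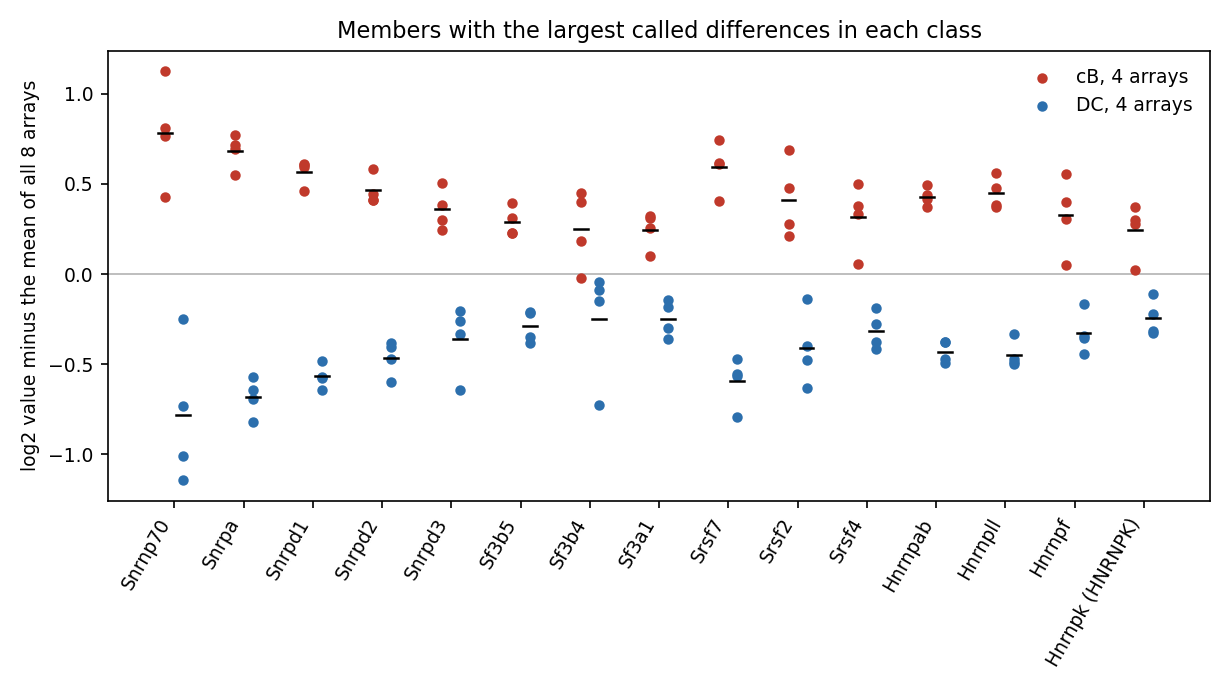
Each point is 1 array, plotted as its log2 value minus the mean of all 8 arrays, for the up to 3 called genes of each class with the largest differences; red is cB, blue is DC, and black bars are group means of 4 arrays. In all 15 genes shown the cB arrays lie above the DC arrays, with the narrowest gap in Sf3b4 (cB values from 6.55, DC values up to 6.53). The genes were picked by their differences on these same arrays, so the separation follows in part from the choice. Every cB array lay above every DC array in 27.7% of all genes tested. Hnrnph1, called toward DC, is not among the genes shown.

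Of the 7 tested genes of SF3A and SF3B, the U2 complexes that hold the branch site, 5 were higher in cB and none in DC, where 29.8% and 31.6% of all genes were. Sf3b5, which encodes a small SF3B subunit, was at 13.25, 13.09, 13.17 and 13.08 in cB and at 12.64, 12.48, 12.51 and 12.65 in DC, a difference of 0.58 ± 0.09 (adjusted p = 3.8e-04). The 4 cB values were all above the DC values. Sf3a1 was at 11.68, 11.73, 11.52 and 11.74 in cB and at 11.28, 11.12, 11.24 and 11.06 in DC, a difference of 0.49 ± 0.10 (adjusted p = 0.0016). Sf3b4, which binds the pre-mRNA near the branch site, was dim, at 6.55, 7.02, 6.97 and 6.76 in cB and at 6.43, 6.48, 5.85 and 6.53 in DC. It was detected on 4 cB arrays and 1 DC array, so it entered the test through cB, and its difference of 0.50 ± 0.17 had an adjusted p of 0.028. With the background from all genes this fell to 0.07 (adjusted p = 0.075), and the call was also lost without cB replicate 2 or 3 or DC replicate 3. Sf3a3 (0.39 ± 0.09) and Sf3b2 (0.39 ± 0.10) rose as well. Sf3b3 differed by 0.20 ± 0.12 and Sf3a2, detected on 3 cB arrays and 1 DC array, by 0.43 ± 0.22, and neither passed. Without cB replicate 1, Sf3a2 did (0.59, adjusted p = 0.033). Sf3b1, the subunit that is recurrently mutated in blood cancers, was undetected on all 8 arrays, with raw intensities between 136 and 170. U2AF, which recognizes the end of the intron, had no row past the threshold. U2af2 differed by 0.10 ± 0.17 and U2af1l4, which can stand in for the small U2AF subunit, by 0.29 ± 0.14 (adjusted p = 0.088). U2af1l4 passed with median scaling (0.38, adjusted p = 0.043) and with cyclic loess (0.38, adjusted p = 0.029).

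SR proteins bind exonic enhancers and recruit U1 and U2AF. All 9 genes of this class were tested and detected on all arrays, and 7 were higher in cB, where 29.8% of all genes were. Srsf7 was at 10.96, 10.83, 10.62 and 10.84 in cB and at 9.42, 9.65, 9.66 and 9.75 in DC. Its difference of 1.19 ± 0.11, 2.28-fold (adjusted p = 1.0e-05), was the largest of the class and exceeded the spread within either group. Srsf2, also known as SC35, was at 12.44, 12.65, 12.17 and 12.24 in cB and at 11.83, 11.57, 11.33 and 11.49 in DC, a difference of 0.83 ± 0.14 (adjusted p = 6.4e-04). Srsf4 was at 10.98, 11.26, 11.31 and 11.43 in cB and at 10.65, 10.74, 10.51 and 10.55 in DC, a difference of 0.63 ± 0.12 (adjusted p = 9.8e-04). In both genes the lowest cB array was above the highest DC array.

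Srsf11 (0.51 ± 0.10), Srsf6 (0.48 ± 0.13), Srsf1 (0.47 ± 0.13), the founding member of the family, and Srsf3 (0.46 ± 0.15) were higher in cB by similar amounts. The groups overlapped in Srsf3, where DC replicate 2 (7.70) lay above cB replicate 3 (7.66), and its call was lost in 4 of 8 fits that left out 1 array, namely cB replicate 1 or 2 or DC replicate 1 or 3. Srsf9 differed by 0.17 ± 0.11 and did not pass. Srsf5 was the only SR protein gene with an estimate toward DC. It was at 11.87, 11.78, 11.83 and 11.77 in cB and at 11.92, 12.28, 11.92 and 12.30 in DC, so that every DC array was above every cB array. Its difference of -0.29 ± 0.12 missed the threshold (adjusted p = 0.051) and passed it in the authors' gene-level table (-0.29, adjusted p = 0.019). Of the 7 rows once named as SR factors that encode SR-related proteins, 2 were tested and neither was called. They were Clasrp (0.34 ± 0.15) and Sugp2 (0.17 ± 0.15). Clasrp passed in the authors' gene-level table (0.26, adjusted p = 0.045) and in the fit without cB replicate 4. The others, Srek1, Srek1ip1, Scaf4, Sfswap and the row SFRS10, a name that RefSeq gives as a synonym of 2 genes, were detected on at most 1 array.

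**Figure D3:**
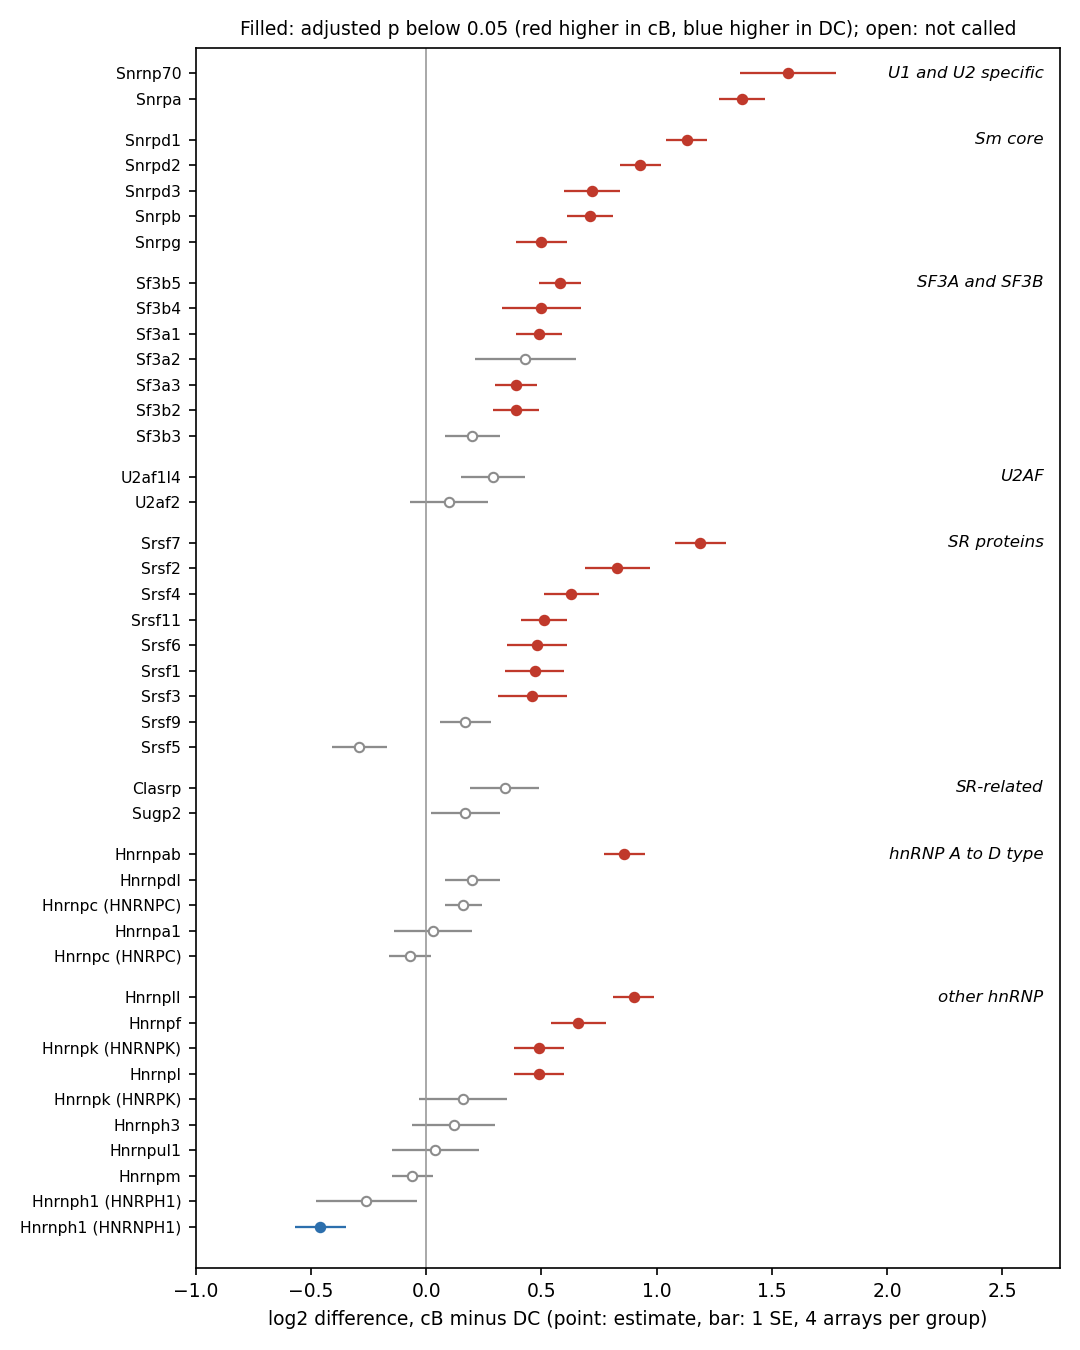
The log2 difference, cB minus DC, is shown for each of the 42 tested rows by class, with bars of 1 SE over 4 arrays per group; filled points passed an adjusted p below 0.05 and open points did not. All 7 Sm, U1 and U2 protein rows lie at 0.50 or above, whereas the 15 hnRNP rows reach from -0.46 to 0.90.

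The hnRNPs coat nascent transcripts and often repress exons. Of their 22 rows, 15 were tested. Calls toward cB numbered 5 (33.3%), a share close to the 29.8% over all genes. The 1 call toward DC (6.67%) was a share below the 31.6% over all genes. Estimates were positive in 11 rows and negative in 4, with a median of 0.16 beside -0.03 over all genes. Hnrnpll, listed as HNRPLL, encodes a factor known to promote skipping of the variable exons of Ptprc in activated T cells. Its log2 values were 9.26, 9.44, 9.35 and 9.25 in cB and 8.40, 8.55, 8.39 and 8.38 in DC. The groups were tight and well apart, with a difference of 0.90 ± 0.09, 1.86-fold (adjusted p = 2.0e-05). Its paralog Hnrnpl, which binds CA-rich RNA, was higher in cB by 0.49 ± 0.11. Hnrnpab was at 14.55, 14.47, 14.43 and 14.49 in cB and at 13.67, 13.56, 13.67 and 13.58 in DC, a difference of 0.86 ± 0.09 (adjusted p = 1.5e-05). Hnrnpf, which binds runs of G, was at 10.63, 10.78, 10.53 and 10.28 in cB and at 9.88, 10.06, 9.78 and 9.87 in DC, a difference of 0.66 ± 0.12 (adjusted p = 0.0012). None of these genes, all picked from those called, had overlapping groups. Every cB array lay above every DC array in 6 of the 15 tested hnRNP rows, beside 27.7% of all genes. The reverse held in 1 hnRNP row.

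Hnrnph1, a close relative of Hnrnpf, gave the only call toward DC and is described for that reason, outside the rule on size. Its row HNRNPH1 was at 11.01, 10.68, 10.82 and 10.64 in cB and at 11.16, 11.24, 11.30 and 11.30 in DC. All DC arrays lay above all cB arrays, with a difference of -0.46 ± 0.11, 1.38-fold higher in DC (adjusted p = 0.0038). With median scaling in place of quantile normalization it no longer passed (-0.39, adjusted p = 0.099). Differences under 0.2 in size and no call were found for Hnrnpa1 (0.03), Hnrnph3 (0.12), Hnrnpul1 (0.04) and Hnrnpm (-0.06). Hnrnpdl was at 0.20 and not called, but passed without cB replicate 2 (0.29, adjusted p = 0.044). The sign of Hnrnpm turned with median scaling (0.11), and those of Hnrnpa1 and Hnrnpul1 turned when single arrays were left out. Hnrnpa3, Hnrnpd, Hnrnph2, Hnrnpr and Hnrnpu were detected on at most 2 arrays and were not tested.

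Of the hnRNP genes, 4 were measured by 2 rows each, which shows how far a call rests on the row. Hnrnpk, a poly-C binding protein, was called in the row HNRNPK at 10.52, 10.45, 10.17 and 10.43 in cB against 9.93, 10.04, 9.84 and 9.83 in DC (0.49 ± 0.11, adjusted p = 0.0029). It was not called in the row HNRPK (0.16 ± 0.19). The 2 rows of Hnrnph1 gave -0.46 ± 0.11 and -0.26 ± 0.22, the latter not called. Hnrnpc gave 0.16 ± 0.08 in the row HNRNPC, where all cB arrays lay above all DC arrays, and -0.07 ± 0.09 in the row HNRPC, neither called. The row HNRNPC passed with no background correction (0.16, adjusted p = 0.038) and with the background from all genes (0.16, adjusted p = 0.0037), and fell to 0.00 with cyclic loess (adjusted p = 0.97). The difference between the rows was tested in 3 genes by permuting 4 arrays against 4, two-sided, where the smallest possible exact p is 0.0286. In Hnrnpk it was 0.33 (exact p = 0.114, adjusted p = 0.171). In Hnrnph1 it was -0.21 (exact p = 0.543, adjusted p = 0.543). In Hnrnpc it was 0.23 (exact p = 0.0286, adjusted p = 0.0858), the smallest adjusted p that 1 gene alone could reach here, so the design did not let it pass. The table does not say which transcripts each row's probes match, and several hnRNP genes have processed pseudogenes, so cross-hybridization was not assessed.

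The promoters of these genes were examined because 24 of the 42 tested rows were called in the same direction. RefSeq windows on GRCm38.p6 were found for 46 of the 53 genes, 63 windows in all, and the 250 bases before each start site were searched on both strands for 4 words. The ETS core CCGGAAG was in 21 of 63 windows (33.3%) and in 6.91% of all 32851 windows of the same length. The E-box CACGTG, a palindrome bound by MYC and related factors, was in 9.52% and 6.02%, CCAAT in 38.1% and 33.8%, and TATAAA in 9.52% and 12.4%. In genes with a row higher in cB the ETS core was in 12 of 27 windows (44.4%), the E-box in 3, CCAAT in 11 (40.7%) and TATAAA in 3. Counted by gene, the ETS core was in 16 of all 46 genes and in 8 of the 19 with a row higher in cB. It was also found before Srsf5, whose estimate was toward DC. Whether the word goes with the direction of a difference was not tested. Windows of 1 gene overlap in part, and base composition and the kind of gene were not matched. A word found is no evidence that a factor binds, and none of the words contains another.

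The 150 bases before the start site follow for the first-listed window of 5 genes. Snrnp70 and Snrpa had the largest differences, Snrpg and Sf3b2 were chosen for an ETS core beside CCAAT, and Hnrnpab for its CCAAT words. Capitals mark the words searched, on either strand.
Snrnp70 (chr7:45395743-45395892, minus strand): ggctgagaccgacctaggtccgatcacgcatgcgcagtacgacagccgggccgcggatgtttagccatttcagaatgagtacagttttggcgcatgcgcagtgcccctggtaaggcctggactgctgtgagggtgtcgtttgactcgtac
Snrpa (chr7:27196272-27196421, minus strand): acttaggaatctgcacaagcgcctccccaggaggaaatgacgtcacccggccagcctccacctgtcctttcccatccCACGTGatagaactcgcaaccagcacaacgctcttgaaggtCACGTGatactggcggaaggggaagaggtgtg
Snrpg (chr6:86371390-86371539, plus strand): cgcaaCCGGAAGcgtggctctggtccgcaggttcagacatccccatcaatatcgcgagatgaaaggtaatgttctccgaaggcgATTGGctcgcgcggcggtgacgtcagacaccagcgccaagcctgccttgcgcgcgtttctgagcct
Sf3b2 (chr19:5295458-5295607, minus strand): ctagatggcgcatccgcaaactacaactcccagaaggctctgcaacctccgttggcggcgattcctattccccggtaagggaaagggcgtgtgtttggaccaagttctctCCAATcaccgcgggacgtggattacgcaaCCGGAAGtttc
Hnrnpab (chr11:51606882-51607031, minus strand): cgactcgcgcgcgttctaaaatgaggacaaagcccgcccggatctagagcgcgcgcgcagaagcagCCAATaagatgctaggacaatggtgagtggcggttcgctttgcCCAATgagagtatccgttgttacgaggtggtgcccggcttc
Snrpa carries 2 E-boxes, and Snrnp70 has none of the 4 words in the stretch shown.

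Other genes of splicing and of mRNA export did not move as a block. Over 8 lists with 165 rows, 125 were tested, of which 45 were higher in cB (36%) and 28 in DC (22.4%), with a median of 0.14. Of all genes tested, 29.8% were higher in cB and 31.6% in DC, so the lists lay above the first share and below the second. The same 2 shares are the background for each list that follows. Genes of the SMN complex and of Sm ring assembly, which load the Sm proteins onto the small RNAs, gave 7 of 13 rows on the cB side and 0 on the DC side (median 0.38), or 53.8% for cB. Among them were Gemin4 (1.61 ± 0.12) and Ddx20 (0.84 ± 0.11), both SMN complex components, and Clns1a (0.74 ± 0.10), which holds Sm proteins before assembly. Of 23 rows for the U4, U5 and U6 particles and LSm ring, 10 were higher in cB (43.5%) and 4 in DC (median 0.08). Lsm2, of the U6 ring (1.93 ± 0.10), the U5 GTPase gene Eftud2 (1.08 ± 0.10) and Snu13, a U4 protein (1.30 ± 0.14), were higher in cB. Among proteins of U1 and U2 not covered by the name rule, Phf5a, an SF3B subunit (1.11 ± 0.11), and Htatsf1 (0.29 ± 0.11) were higher in cB, 2 of 4 tested, while Luc7l3 (-0.27 ± 0.22) was not called. In the minor spliceosome 3 of 4 rows were higher in cB, with Snrnp25 (1.35 ± 0.10), Snrnp35 (0.50 ± 0.18) and Zmat5 (0.33 ± 0.12). Zrsr2, a U2AF-related gene of the same list, missed the detection filter and lay the other way, between 6.76 and 7.15 on cB arrays and between 7.79 and 8.21 on DC arrays, with no test.

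The Prp19 complex and the splicing helicases, which act in the assembled spliceosome, gave 8 of 19 rows called toward DC (42.1%, beside 31.6% of all genes) and 3 toward cB (median -0.15). Prpf18, a second-step factor, was at -0.76 ± 0.11, and Bcas2 (0.99 ± 0.19) and Ctnnbl1 (0.88 ± 0.10) were on the cB side. Of 6 tested kinase and import genes for SR proteins, Srpk1, the kinase that phosphorylates them in the cytoplasm, was higher in cB (0.85 ± 0.12), while the nuclear kinases Clk3 (-0.60 ± 0.11) and Clk4 (-0.51 ± 0.12) were higher in DC. Other splicing regulators were split, with 9 of 35 higher in cB (25.7%) and 8 in DC (22.9%), both below the shares over all genes. Celf2 (1.56 ± 0.15), a T cell splicing regulator, was higher in cB, and Rbm4 (-1.21 ± 0.10) and Rbm4b (-1.91 ± 0.19) in DC, a paralog pair close enough in sequence that their probes may share signal. In exon junction, export and nonsense-mediated decay genes 10 of 21 were higher in cB (47.6%), among them the export factor gene Nxt1 (1.23 ± 0.12), and 6 in DC (28.6%), among them the decay gene Smg6 (-1.67 ± 0.14). Whether any list differs from the splicing rows named by the rule was not tested.

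**Figure D4:**
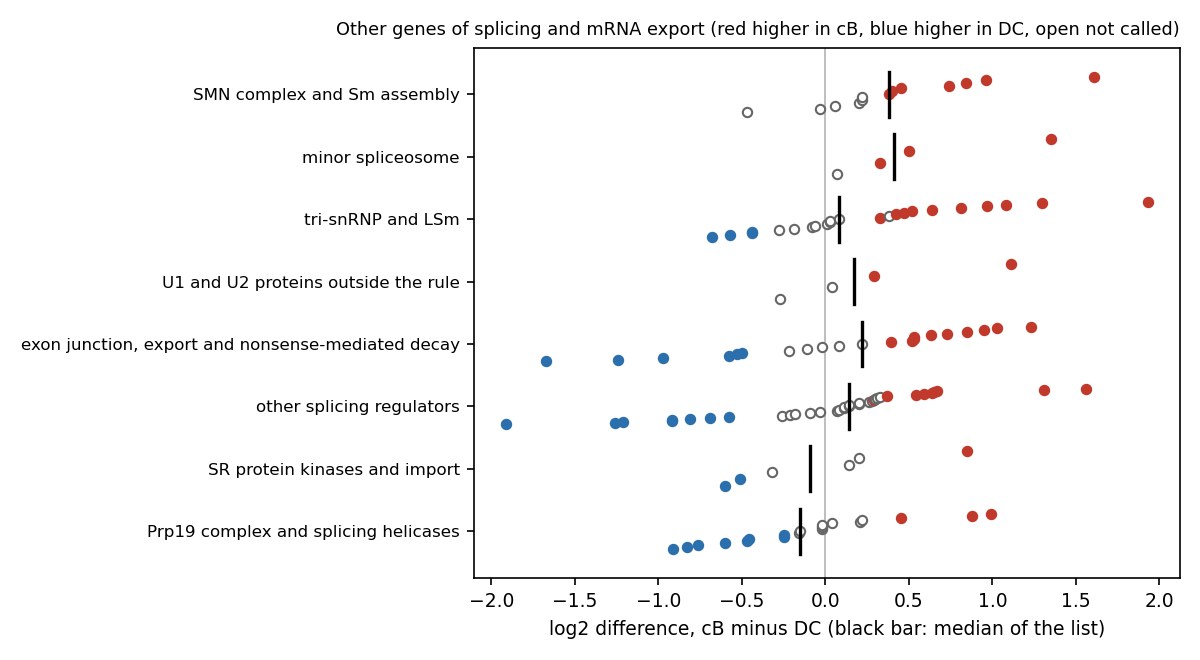
Each point is 1 tested row of a list of other splicing or export genes, placed by its log2 difference, cB minus DC; red was called higher in cB, blue higher in DC, open was not called, and black bars are list medians. The medians run from -0.15 for the Prp19 complex and helicases to 0.41 for the minor spliceosome, with 0.38 for the SMN complex and Sm assembly.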

How the data were processed

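RNA from 8 sorted T cell samples was measured on Illumina mouse arrays. The deposited table before normalization holds, for 18138 gene names, an average bead intensity and a detection p-value on each array, as its headers say. A second table of the authors has log2 values for 7266 genes, of which 39 are members, and how these were made was not stated. The probe-level tables carry no gene names and were not used.

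Background was estimated from the detection p-values of the 13929 rows whose values are whole multiples of 1 in 798 on all arrays (tolerance 0.001), followed by normexp with an offset of 16, log2 and quantile normalization (limma 3.58.1, R 4.3.3). Rows that 4 or more arrays detected (detection p below 0.05) were fitted with lmFit and eBayes, two-sided, with Benjamini-Hochberg adjustment over all 7167. Differences are cB minus DC. Groups and replicate numbers come from the sample titles. The procedure was checked on simulated data in which every row was of the kind used to estimate background, so the other rows were not covered.

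Array names were paired with RefSeq symbols (GRCm38.p6) for 56 of 57 rows, 27 of them by synonym. Values on every array are given for up to 3 called members of each class with the largest differences, and for a few others named as such or shown beside them. Of each other list up to 3 genes by lowest p are named, of which 1 is not reported here. The members, classes and lists were chosen with earlier results of these data known. There were 19 alternatives, of which 1, a filter on mean intensity, was added after seeing the data. The number of arrays limits the precision.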

Additional observations from a re-analysis of the deposited data

Results flagged for a closer look

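In 7 of 84 groups of 4 arrays (8.3%), 1 array lay far from the other 3 by Dixon's criterion, which chance meets in about 1 group in 20. DC replicate 2 was high for Hnrnpll (8.55, the others 8.38 to 8.40) and Srsf6 (10.13, the others 9.64 to 9.69), and low for Clasrp (8.22, the others 8.61 to 8.65). DC replicate 1 was high for Sf3b2 (12.47, the others 12.32 to 12.34). DC replicate 3 was low for Sf3b4 (5.85, the others 6.43 to 6.53), and DC replicate 4 for Hnrnpc in the row HNRPC (10.27, the others 10.36 to 10.38). cB replicate 1 was low for Snrpd1 (13.17, the others 13.30 to 13.32). The calls of Hnrnpll, Srsf6, Sf3b2 and Snrpd1 passed in each fit that left out 1 array, while that of Sf3b4 did not.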

How the results depend on the processing

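Of the 25 called rows, 22 kept call and direction under each of the 19 alternatives in which they had a value; the others were Sf3b4, Srsf3 and Hnrnph1 (median scaling). Without DC replicate 3, Sf3b4 (adjusted p up to 0.075 over its alternatives) and Srsf3 (up to 0.057; 0.14 in size with the background from all genes) were both lost. The count of rows higher in cB lay between 22 and 26 of 36 to 57 tested. The count higher in DC, 1, was 2 with no background correction, the background from all genes, offset 50, detection on all 8 arrays, detection p below 0.01, a mean intensity of at least 300 or the authors' gene-level table, and 0 with median scaling; with 1 array left out it was 1 to 2, being 2 without DC replicate 1 or 3. The second row was Srsf5 in each case. The median difference fell to 0.29 with no detection filter, which adds 15 mostly undetected rows. Over all genes 3504 to 4743 rows were called, and in the other lists 39 to 49 were higher in cB. Titles share replicate numbers, but same-numbered arrays correlated by 0.113, 0.128, 0.175 and 0.082 after removing group means, so pairing was not assumed, although each array correlated best with its own number. With the replicate block 26 rows were higher in cB and 1 in DC, with Sf3a2 (adjusted p = 0.038) and U2af1l4 (0.036) added; U2af1l4 also passed without cB replicate 3. Dim rows near background limit the sizes: Sf3b4 was 0.20 in the authors' gene-level table.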

Other observations

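Hnrnpa2b1, one of the core hnRNPs, missed the detection filter although its signal was not dim. Its raw intensity was 1868, 1561, 2583 and 1958 on the cB arrays and 941, 1113, 1035 and 1278 on the DC arrays, so that all cB arrays lay above all DC arrays. Its detection p-values nevertheless ran from 0.00842 to 0.127 and were below 0.05 on 3 of 8 arrays. With no detection filter its log2 difference was 0.83 (limma adjusted p = 0.0015), and it was 0.74 in the authors' gene-level table (adjusted p = 5.5e-05). It was singled out after its values were seen.

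The detection p-values of 12 of the 57 rows, Hnrnpa2b1 included, are not whole multiples of 1 in 798. Over the whole table, 38 of 246 such rows with a mean intensity of at least 1000 missed the filter (15.4%), and 0 of 1993 rows on that step did. Why was not tested. A filter on detection p therefore leaves out some bright rows of this kind, and a filter on mean intensity, which keeps Hnrnpa2b1, gave 24 of 36 rows higher in cB.

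Among the 15 untested rows only Hnrnpa2b1 passed with no detection filter. The other 14 differed by between -0.32 (Srek1ip1) and 0.32 (Hnrnpd), with adjusted p-values from 0.12 to 0.96, and their signal lay near background, so a difference was not detectable.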
